A study of Homo sapiens with 12 samples.

Results

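The miRNAs described here are the families miR-34, miR-192, miR-194 and miR-215, measured in OCI-My5 multiple myeloma cells. Every assay of the array named for hsa-miR-34a, hsa-miR-34b, hsa-miR-34c, hsa-miR-192, hsa-miR-194 or hsa-miR-215, on either arm of the hairpin, was taken. The rule found 10 of the 372 miRNA assays: miR-192-5p, miR-192-3p, miR-194-5p, miR-215-5p, miR-34a-5p, miR-34a-3p, miR-34b-3p, miR-34b-5p, miR-34c-3p and miR-34c-5p.

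OCI-My5 is an established human myeloma line that was turned into a pair of lines with lentivirus. My5.LV cells (My5/LV in the labels) carry the vector alone and have a low level of CRBN, the protein to which lenalidomide binds. My5.CRBN cells (My5/CRBN) carry a histidine-tagged CRBN cDNA under the CMV promoter, and both lines were sorted for GFP as pools of infected cells. Each line was measured un-treated, with AGO2-sh72 (an shRNA against AGO2, called EIF2C2 in the labels), with an epitope-tagged AGO2 cDNA under the CMV promoter, with 10 μM lenalidomide for 72 or 120 hours, and with AGO2 cDNA and 72 hours of lenalidomide together, so that 12 arrays stood for 12 conditions. The AGO2 viruses were selected with puromycin, whereas the un-treated cells, to which every treatment is compared below, carry neither empty AGO2 vector by their labels. No label names a culture with the drug solvent or one kept for the same hours. Solvent and culture time therefore cannot be told apart from lenalidomide. The array holds no assay for CRBN or AGO2 mRNA, so the 2 targeted genes could not be checked on it.

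The measurement is the threshold cycle (Ct), the number of PCR cycles a well needs before its signal is called, so that a higher Ct is a lower level. A Ct above 35, or none, was set to 35. The mean Ct of 6 small-RNA control wells of the same array (5 SNORD wells and RNU6) was subtracted, which gives the normalized Ct in cycles. To obtain a log2 fold change, the normalized Ct of the array under study was taken from that of its control, and differences of at least 3 fold, a log2 value of 1.58, were counted. An assay at the cap on 1 of the 2 arrays gives a bound, and an assay at the cap on both gives no value. There was 1 array per condition, so no difference has a replicate check and no p-value is given. As a measure of spread, the log2 fold changes of the 6 control wells were used, whose SD (the control-well SD) was 0.18 to 0.67 over the comparisons with un-treated cells. Wells holding the same assay on the same array differed little for the reverse transcription control (root mean square 0.187 cycles) and the PCR control (0.383 cycles). For cel-miR-39, whose Ct ran from 31.5 to the cap, the difference was 1.43 cycles, and its pair of wells lay at least 3 fold apart on 4 of the 12 arrays. The RNA came from whole cultures, so fewer cells holding a miRNA and less of it per cell cannot be told apart.

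The miR-34 family is known for lowering mRNAs that drive the cell cycle and survival, such as those of cyclins, CDKs and BCL2. miR-192, miR-194 and miR-215 have likewise been described as restraining growth, in part in multiple myeloma. A mature miRNA is cut from a hairpin and loaded into an Argonaute protein such as AGO2, which holds it while its seed, the bases near its 5′ end, pairs with target mRNAs.

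A mature sequence was matched in RefSeq (GRCh38.p14) for 9 of the 10 assays and is shown with the seed, bases 2 to 8, in capitals. The set is given because several assays differ by few bases, or share their hairpin or their seed.
hsa-miR-192-5p: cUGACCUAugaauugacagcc
hsa-miR-215-5p: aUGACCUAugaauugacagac
hsa-miR-192-3p: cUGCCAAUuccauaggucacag
hsa-miR-194-5p: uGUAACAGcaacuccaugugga
hsa-miR-34a-5p: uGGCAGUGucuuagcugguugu
hsa-miR-34a-3p: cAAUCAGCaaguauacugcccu
hsa-miR-34b-5p: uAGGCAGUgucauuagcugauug
hsa-miR-34b-3p: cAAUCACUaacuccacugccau
hsa-miR-34c-3p: aAUCACUAaccacacggccagg

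miR-192-5p and miR-215-5p were the 2 assays with the same seed, UGACCUA. Counted from the 5′ end, with the base of miR-192-5p first, they differ by C1A and C20A over 21 bases. How far each assay also amplifies the other miRNA was not tested. The sequence of miR-194-5p is the same from MIR194-1 and from MIR194-2, so its assay reads both genes together. The seed of miR-34b-5p is shifted by 1 base against that of miR-34a-5p, as GGCAGU starts at base 3 of miR-34b-5p and at base 2 of miR-34a-5p.

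The 10 assays come from 7 genes in 4 places of the GRCh38.p14 assembly, and in 3 of them a pair of hairpins lies close together. MIR192 (chr11:64891137-64891246, minus strand) and MIR194-2 (chr11:64891355-64891439, minus strand) are 108 bases apart and both overlap the non-coding gene MIR194-2HG. MIR215 (chr1:220117853-220117962, minus strand) and MIR194-1 (chr1:220118157-220118241, minus strand) are also neighbours and overlap the protein-coding gene IARS2. MIR34B (chr11:111512938-111513021, plus strand) and MIR34C (chr11:111513439-111513515, plus strand) are 417 bases apart and overlap MIR34BHG and BTG4. MIR34A (chr1:9151668-9151777, minus strand) lies alone, within MIR34AHG. Its hairpin of 110 bases is printed with both mature arms in capitals, since the 2 arms behaved differently below.
MIR34A hairpin: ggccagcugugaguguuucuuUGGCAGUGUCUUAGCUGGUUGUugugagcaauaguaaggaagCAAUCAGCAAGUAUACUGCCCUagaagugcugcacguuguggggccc

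Of the 10 assays, 8 had a Ct under 35 on all 12 arrays. miR-34b-5p was under 35 on 8 arrays and miR-34c-5p on 4, so these 2 are described mainly by bounds. Over the whole array, 314 miRNAs were under 35 on every array, and 324 to 367 were on any 1 array. The mean Ct of the control wells ranged from 18.7 to 21.9, and it is the quantity removed from each value below. Levels are compared only within an assay, since the efficiency of each primer is not known.

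miR-192-5p and miR-194-5p were read early, and miR-192-5p varied little. The Ct of miR-192-5p ran from 23.1 to 26.5 with a median of 24.8, and its normalized Ct from 4.03 to 5.51 with a median of 4.44. Its SD over the 12 arrays was 0.40 cycles, the 15th smallest of the 314 miRNAs, and 10 of the arrays lay within 4.03 and 4.70. The AGO2-sh72 arrays were the 2 lowest, at 5.08 in My5.CRBN and 5.51 in My5.LV cells. The Ct of miR-194-5p, which shares a cluster with miR-192, ran from 21.3 to 25.3 and its normalized Ct from 2.27 to 4.31, with a median of 3.00. Its SD was 0.53 cycles, the 53rd smallest, after those of miR-34a-5p (32nd), miR-34b-3p (38th) and miR-34c-3p (50th). The level of miR-194-5p was highest in My5.CRBN cells after 72 hours of lenalidomide. It was again lowest on the 2 AGO2-sh72 arrays, at 3.58 and 4.31. Between neighbours in the order of the 12 arrays, only 1 of the 11 steps of either miRNA was larger than the 0.383 cycles of the PCR control wells, namely the step between the 2 AGO2-sh72 arrays.

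miR-215-5p and miR-192-3p were read later, from 29.6 to 33.3 and from 29.3 to 32.2 cycles. The normalized Ct of miR-215-5p was 10.36 in un-treated My5.LV and 11.81 in un-treated My5.CRBN cells, and ran from 10.27 (My5.LV with AGO2 cDNA) to 12.35 (My5.LV with AGO2-sh72). Besides that lowest array, the un-treated My5.CRBN array stood apart at the low end. miR-192-3p, the other arm of the MIR192 hairpin, had its highest level at 9.40 in My5.CRBN cells with AGO2 cDNA and lenalidomide. Its 3 lowest arrays were My5.CRBN at 72 hours (11.55) and both lines at 120 hours of lenalidomide (11.69 in My5.CRBN and 11.95 in My5.LV).

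miR-34a-5p, the arm of MIR34A usually described as the active one, had a Ct from 26.6 to 31.5 and was among the less variable miRNAs, with an SD of 0.47 cycles that ranked 32nd smallest of 314. Its normalized Ct was 7.75 at the highest level, in My5.LV cells with AGO2 cDNA, and 9.62 at the lowest, in My5.CRBN cells with AGO2 cDNA. The other 10 arrays lay between 7.86 and 8.88. The same treatment thus held both ends of the order, 1 in each line. The array at the low end, My5.CRBN with AGO2 cDNA, also had the highest control-well mean Ct (21.9) and the fewest miRNAs under 35 (324). What part this had in its low value was not tested. miR-34a-3p, from the same hairpin, was read at 30.1 to 34.2 cycles, varied more (SD 0.81, ranked 209th of 314) and had another order. Un-treated My5.LV cells (13.08) and My5.LV cells after 120 hours of lenalidomide (13.15) had its 2 lowest levels, and the other 4 My5.LV arrays lay between 10.67 and 11.62. In My5.CRBN cells the un-treated array (11.31) and the array at 72 hours of lenalidomide (11.36) were the highest of that line, and the other 4 lay between 12.26 and 12.88.

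From the MIR34B and MIR34C pair, the 3p arms were measured on every array. miR-34b-3p had a normalized Ct from 8.74 to 10.57 with a median of 9.70, and miR-34c-3p from 6.83 to 8.52 with a median of 7.86. For both, the array of My5.CRBN cells at 72 hours of lenalidomide had the highest level. The lowest was My5.CRBN with AGO2 cDNA for miR-34b-3p and My5.LV at 120 hours of lenalidomide for miR-34c-3p. miR-34b-5p had its lowest Ct before normalization, 32.3, in My5.CRBN cells at 72 hours of lenalidomide, where its normalized Ct was 13.28. Its highest normalized level was 12.16, in My5.CRBN cells with AGO2 cDNA and lenalidomide. It was at the cap on both un-treated arrays, on My5.CRBN with AGO2 cDNA and on My5.LV at 120 hours. miR-34c-5p was under the cap on 4 arrays. Its Ct was 32.6 in My5.LV cells at 120 hours and 32.9 in My5.CRBN cells at 72 hours. It was 33.2 in My5.LV cells with AGO2 cDNA and lenalidomide, and 34.03 in My5.LV cells with AGO2-sh72. In the same order, the normalized Ct values were 12.96, 13.81, 14.45 and 13.05.

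**Figure D1:**
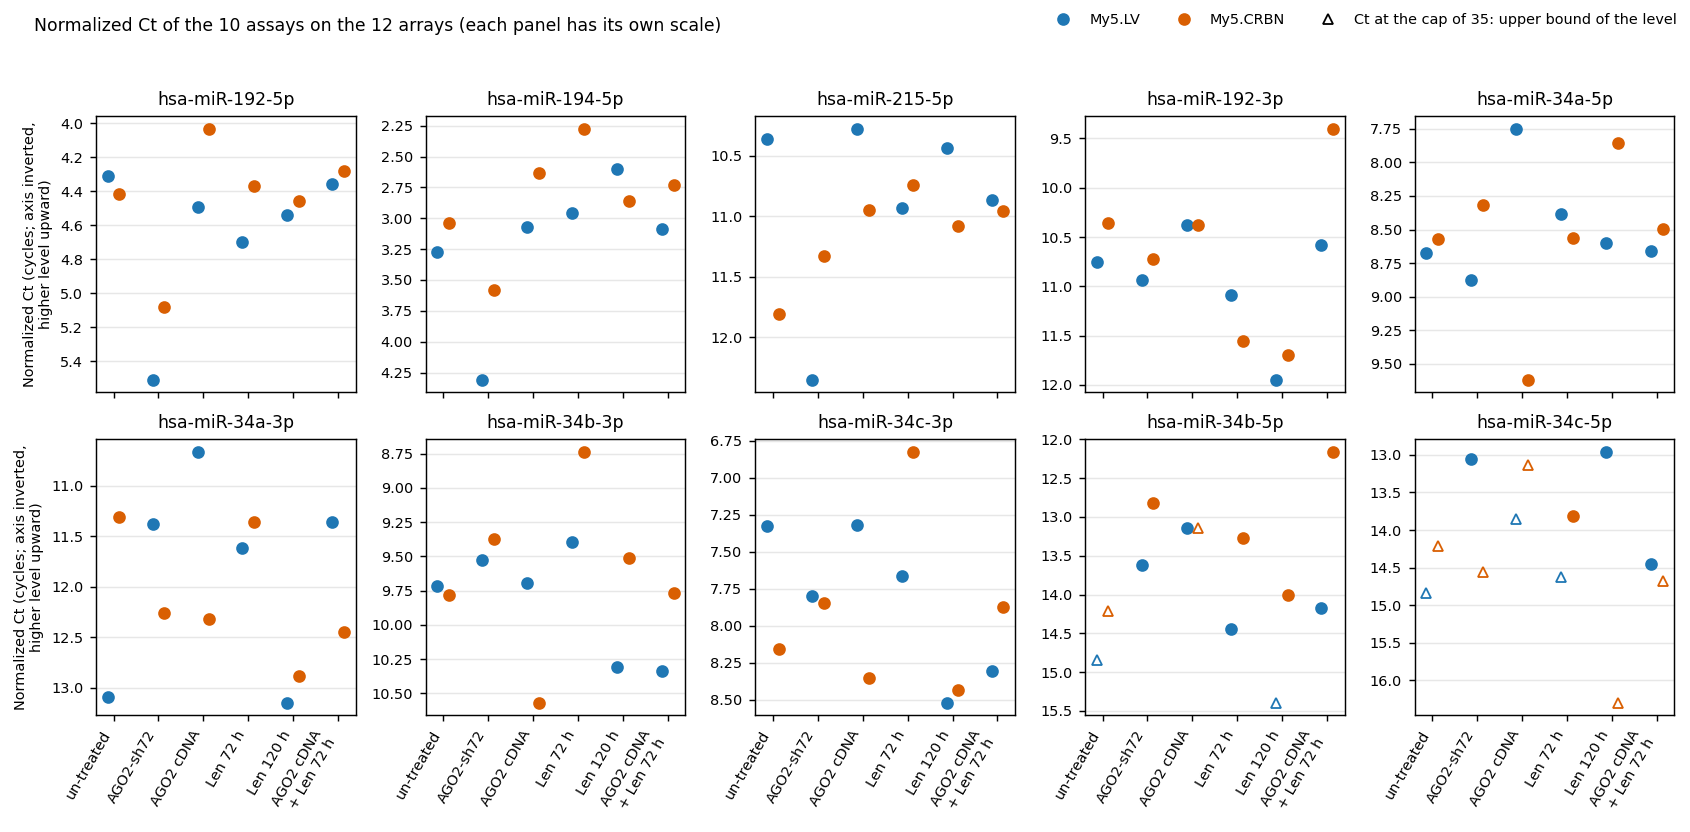
Normalized Ct in cycles (vertical axis, inverted so that a higher level is higher) of the 10 assays in the 6 conditions (horizontal axis), for My5.LV and My5.CRBN cells, with 1 point per array. Open triangles are arrays at the cap of 35, where the level is an upper bound; miR-192-5p and miR-194-5p are lowest on both AGO2-sh72 arrays, whereas miR-34a-5p has its highest and its lowest array among the AGO2 cDNA arrays.

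With un-treated cells of each line as its control, 8 of the 100 pairs of array values (10 miRNAs, 5 treatments and 2 lines, pairs with both arrays at the cap included) were at least 3 fold apart, 7 of them higher and 1 lower. Over the same 10 comparisons, 423 of 3720 pairs of all miRNAs (11.4%) were, 142 of them higher and 281 lower. miR-34a-3p, miR-34b-5p and miR-34c-5p gave 7 of the 8, and 4 of the 8 are bounds. miR-192-5p and miR-194-5p reached 3 fold in none of the 10 comparisons. The treatments of a line share its un-treated array, so the values within a line are not independent of each other.

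AGO2-sh72 was compared with un-treated cells to ask how the miRNAs stood when AGO2 was silenced. In My5.LV cells miR-215-5p was lower, with a log2 fold change of -1.99, and miR-34a-3p (1.71) and miR-34c-5p (at least 1.79) were higher. These 3 of 10 stood beside 25.5% of all 372 miRNAs past 3 fold, and the control-well SD was 0.51. miR-215-5p had -1.13 with the global mean as normalizer, and miR-34a-3p 0.72 and miR-34c-5p 0.81 with RNU6 alone, all short of 3 fold. In My5.CRBN cells 0 of the 10 were past 3 fold, beside 14.5% of all miRNAs, with a control-well SD of 0.30. In My5.LV cells the 10 had a median log2 fold change of -0.19, against 0.25 for the 9 with a value in My5.CRBN cells, where that of all miRNAs was -0.81 and -0.58. These medians include bounds, and the members were not matched to all miRNAs by Ct.

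miR-192-5p and miR-194-5p had lower values with AGO2-sh72 in both lines, short of 3 fold. The log2 fold change of miR-192-5p was -1.20 in My5.LV, against -0.66 in My5.CRBN cells. That of miR-194-5p was -1.03 and -0.54. miRNAs read at a similar cycle had a median of -1.52 in My5.LV cells over 113 miRNAs (quartiles -1.82 and -1.13) and of -1.13 in My5.CRBN cells over 127 miRNAs (quartiles -1.48 and -0.72). miR-192-5p in My5.LV cells lay between those quartiles, and the other 3 values lay nearer to 0 than them. These were the miRNAs whose Ct was under 26 on the un-treated array of the opposite line, which is not part of the comparison. With the global mean of the miRNAs as normalizer, which takes up a shift common to all, miR-192-5p had -0.34 and -0.12, and miR-194-5p -0.17 and, with its sign turned, 0.01. On the log2 scale RNU6 itself stood 0.98 above the mean of the control wells in the My5.LV comparison, and with RNU6 alone as normalizer both miRNAs passed 3 fold in My5.LV cells (-2.18 and -2.02). The part of this shift of all miRNAs in the low values of miR-192-5p and miR-194-5p was not tested.

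miR-215-5p differed from its seed partner under AGO2-sh72. Its Ct was 30.5 in un-treated and 33.3 in AGO2-sh72 My5.LV cells, whereas in My5.CRBN cells it was 32.6 and 31.8. The log2 fold change was thus -1.99 in My5.LV, against 0.49 in My5.CRBN cells. With a cap of 32 the un-treated My5.CRBN array is capped, and the value there is only a lower bound (-0.12). The log2 fold change of miR-34a-5p was small in both lines, with -0.20 and 0.25. miR-34b-3p had 0.19 and 0.41, and miR-34c-3p -0.47 and 0.31. These 3 members of the miR-34 family stayed within 1 control-well SD of 0 in My5.LV cells, whereas miR-34b-3p and miR-34c-3p were at 1.38 and 1.04 SD in My5.CRBN cells. The My5.LV comparison had 88 miRNAs lower and 7 higher by 3 fold or more. The sign of the 3 in My5.LV cells depended on the normalizer, since miR-34a-5p (0.66) and miR-34c-3p (0.39) were positive with the global mean and miR-34b-3p (-0.79) was negative with RNU6 alone.

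AGO2 cDNA was the opposite manipulation. In My5.LV cells miR-34a-3p was 5.35 fold higher (log2 2.42; control-well SD 0.41) and miR-34b-5p at least 3.25 fold higher (log2 1.70), so 2 of 10 were past 3 fold, beside 6.72% of all miRNAs. Under the other 3 normalizers miR-34a-3p remained past 3 fold (1.78 to 2.23) and miR-34b-5p did not (1.06 to 1.52). In My5.CRBN cells 0 of 10 were past it, beside 8.33%. The Ct of miR-34a-3p was 33.2 in un-treated and 31.8 in AGO2 cDNA My5.LV cells, and 32.1 and 34.2 in My5.CRBN cells, all within the Ct range of the cel-miR-39 wells. In My5.CRBN cells its log2 fold change was -1.01. miR-34a-5p went the same way as its partner arm, with 0.92 in My5.LV, against -1.05 in My5.CRBN cells (control-well SD 0.56), though neither reached 3 fold. With RNU6 alone as normalizer, miR-34a-5p had 0.29 in My5.LV cells, within 1 control-well SD of 0. miR-192-5p had -0.18 and 0.39, and miR-194-5p 0.20 and 0.41. The values of miR-34b-3p were 0.02 and -0.78, and those of miR-34c-3p 0.00 and -0.20.

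When AGO2 cDNA was set directly against AGO2-sh72, which leaves the un-treated arrays out, miR-192-5p was higher by 1.02 in My5.LV, against 1.05 in My5.CRBN cells, and miR-194-5p by 1.23 and 0.94. With the global mean as normalizer these became -0.03 and 0.74 for miR-192-5p, and 0.19 and 0.64 for miR-194-5p. miR-215-5p was 4.22 fold higher in My5.LV cells (log2 2.08) and at 0.38 in My5.CRBN cells. It was the 1 member past 3 fold in My5.LV cells, beside 22.6% of all miRNAs, and had 1.03 there with the global mean, short of 3 fold. In My5.CRBN cells 0 were past it, beside 13.7%. miR-34a-5p had 1.13 in My5.LV, against -1.30 in My5.CRBN cells. It is the member whose value was over 1 in size in both lines and of opposite sign, although its My5.LV value was 0.08 with the global mean as normalizer.

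Lenalidomide for 72 hours put 0 of the 10 miRNAs past 3 fold in either line, beside 1.08% of all miRNAs for My5.LV and 10.2% for My5.CRBN. The largest values were 1.46 for miR-34a-3p in My5.LV cells (control-well SD 0.18) and 1.33 for miR-34c-3p in My5.CRBN cells (SD 0.22). In the lenalidomide-sensitive My5.CRBN cells, miR-34b-3p (1.05), miR-215-5p (1.07) and miR-194-5p (0.77) also had positive values, on an array where all miRNAs had a median of 0.32. miR-192-3p had -1.20 there. miR-34a-5p had 0.29 in My5.LV, against 0.01 in My5.CRBN cells, and miR-192-5p had -0.39 and 0.05.

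After 120 hours of lenalidomide, 1 of 10 in My5.LV cells was past 3 fold, beside 18.5% of all miRNAs, and 0 of 10 in My5.CRBN cells, beside 16.1%. The 1 was miR-34c-5p, at least 3.69 fold higher, read at a Ct of 32.6 against 36.0 in un-treated cells. miR-34a-3p lay just short of the threshold in My5.CRBN cells, 2.99 fold lower (log2 -1.58), and was past it with the reverse transcription control wells as normalizer (-1.68), but further from it with the global mean (-1.34) and RNU6 alone (-1.38). Its value in My5.LV cells was -0.06. miR-192-3p was lower in both lines, with -1.19 in My5.LV (SD 0.41) and -1.33 in My5.CRBN cells (SD 0.22), while its partner arm miR-192-5p had -0.23 and -0.04. Under the other 3 normalizers these values of miR-192-3p ran from -0.97 to -1.44. miR-34a-5p had 0.07 and 0.71, and miR-34c-3p -1.20 and -0.28.

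With AGO2 cDNA and 72 hours of lenalidomide together, miR-34a-3p was 3.32 fold higher in My5.LV cells (log2 1.73, SD 0.67), 1 of 10 beside 7.53% of all miRNAs. In My5.CRBN cells miR-34b-5p was at least 4.14 fold higher (log2 2.05), 1 of 10 beside 5.11%. With RNU6 alone as normalizer it had 1.37 there, short of 3 fold, and miR-34a-3p had -1.82, past it, in place of -1.14. RNU6 stood 1.16 (log2) above the control-well mean in this My5.LV comparison, and with RNU6 alone as normalizer miR-34a-3p fell to 0.57. Under that normalizer miR-215-5p (-1.67), miR-34b-3p (-1.79) and miR-34c-3p (-2.14) would have been counted as lower in My5.LV cells, where they had -0.51, -0.62 and -0.98 with all 6 control wells. miR-34a-5p was at 0.02 and 0.07, miR-192-5p at -0.05 and 0.14, and miR-194-5p at 0.19 and 0.31, all within 1 control-well SD of 0. With RNU6 alone these 3 arms had -1.15, -1.21 and -0.98 in My5.LV cells.

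**Figure D2:**
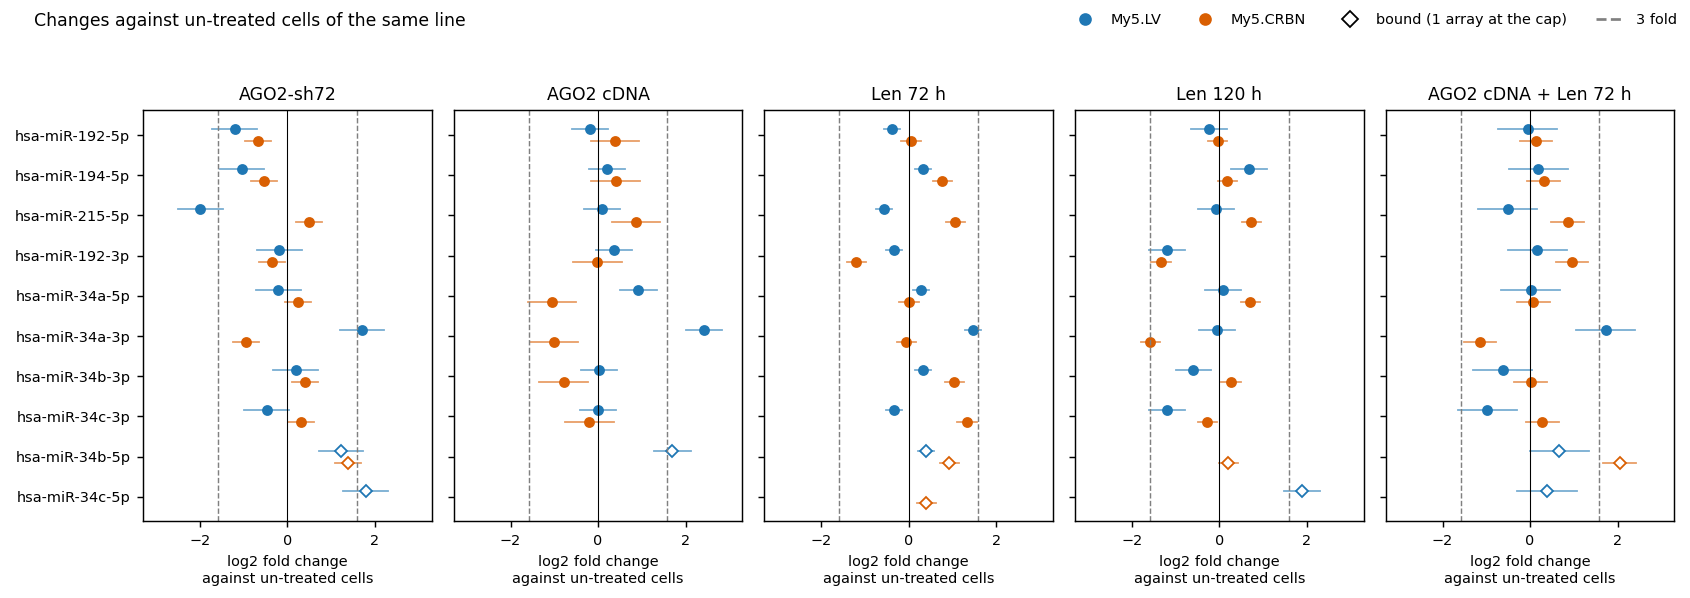
Log2 fold change relative to the un-treated array of each line (horizontal axis) for the 10 assays (vertical axis) in 5 treatments, for My5.LV and My5.CRBN cells. Bars reach 1 control-well SD to either side, open diamonds are bounds with 1 array at the cap, assays at the cap on both arrays are left out, and dashed lines mark 3 fold; 8 points lie past those lines, and miR-34a-3p accounts for 3 of them, all in My5.LV cells.

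My5.CRBN cells were compared with My5.LV cells in each of the 6 matched conditions, to see how the miRNAs stood with more CRBN. Of 60 pairs, 5 were at least 3 fold apart, beside 4.03% to 12.9% of all miRNAs in the single conditions. In un-treated cells miR-34a-3p was 3.43 fold higher in My5.CRBN cells (log2 1.78, SD 0.22), 1 of 10 beside 4.03% of all miRNAs. It fell short of 3 fold with RNU6 alone as normalizer (1.53) and had no value with a cap of 32, at which both arrays are capped. miR-215-5p was 2.73 fold lower (log2 -1.45) and passed 3 fold with RNU6 alone as normalizer (-1.70). With AGO2-sh72, 0 of 10 were past 3 fold, again beside 4.03%. miR-34c-5p, at the cap in My5.CRBN cells, had a bound of -1.50, which passed 3 fold with the global mean and with the reverse transcription control wells (both -1.75). With AGO2 cDNA, both arms of MIR34A were lower in My5.CRBN cells, miR-34a-5p by 3.65 fold (log2 -1.87, SD 0.52) and miR-34a-3p by 3.14 fold (log2 -1.65), 2 of 10 beside 10.8%. For miR-34a-5p this was -1.38 with the global mean and -1.57 with the reverse transcription control wells as normalizer, both short of 3 fold. miR-34a-3p was short of it under all 3 other normalizers (-1.16 to -1.49), and with a cap of 32 it had an upper bound of 0.53 in place of a measured value.

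With lenalidomide, 0 of 10 were past 3 fold at 72 hours, beside 9.95% of all miRNAs, and 1 of 10 at 120 hours, beside 12.9%. The 1 was miR-34c-5p, at the cap in My5.CRBN cells and at least 10.1 fold lower there than in My5.LV cells. With AGO2 cDNA and lenalidomide, miR-34b-5p was 4.03 fold higher in My5.CRBN cells (log2 2.01), 1 of 10 beside 6.99%. Its Ct was 32.5 in My5.CRBN and 32.9 in My5.LV cells, and the control wells averaged 20.3 and 18.7 cycles. No member was past 3 fold in the same direction in more than 1 condition.

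Over the 6 conditions the mean log2 ratio of My5.CRBN to My5.LV cells was 0.21 ± 0.23 (SD over 6 conditions, which are not replicates) for miR-192-5p and 0.36 ± 0.36 for miR-194-5p. My5.CRBN cells had the higher value in 5 of the 6 conditions for each, by at most 0.46 and 0.73. The control-well SD of these comparisons was 0.21 to 0.52. For miR-192-5p the pattern depended on the normalizer. With the global mean it had -0.04 in un-treated cells, -0.06 at 72 hours of lenalidomide and -0.07 with AGO2 cDNA and lenalidomide. It then had 0.18 with AGO2-sh72, 0.15 at 120 hours of lenalidomide and 0.95 with AGO2 cDNA. The mean was -0.08 ± 0.94 for miR-34a-5p and -0.22 ± 1.24 for miR-34a-3p, whose values ran from -1.65 to 1.78. For these 2 arms, the spread between conditions was thus several times the mean difference between the lines. The spread also exceeded the size of the mean for miR-34c-3p (-0.09 ± 0.72), miR-215-5p (-0.27 ± 0.85), miR-34b-3p (0.20 ± 0.62) and miR-192-3p (0.26 ± 0.54). It was slightly larger than the mean for miR-192-5p and about equal to it for miR-194-5p. miR-192-3p too had the higher value in My5.CRBN cells in 5 of the 6 conditions.

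**Figure D3:**
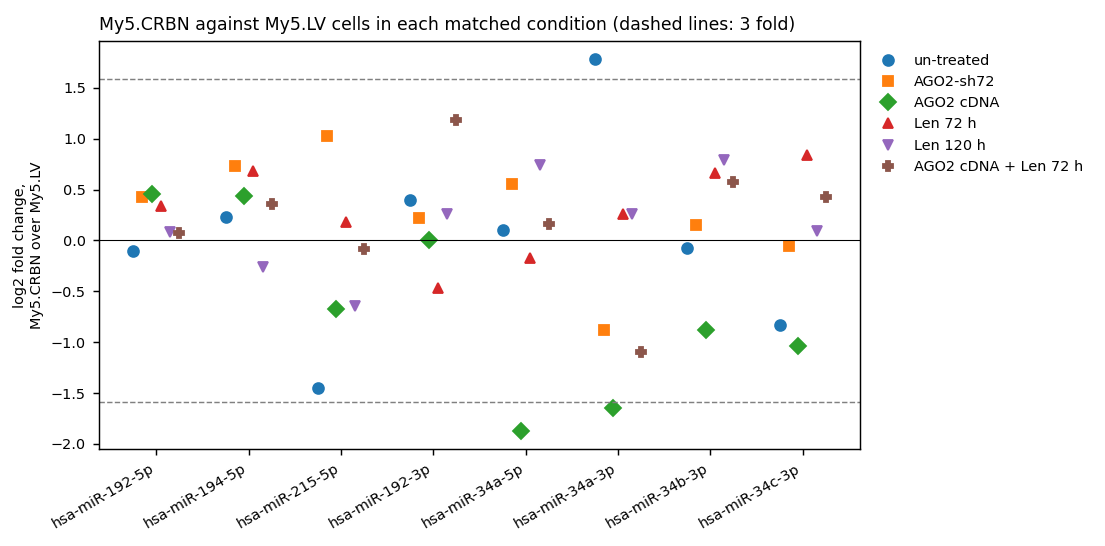
Log2 fold change of My5.CRBN over My5.LV cells (vertical axis) in each of the 6 conditions for the 8 assays measured on all arrays (horizontal axis), with 1 point per pair of arrays and dashed lines at 3 fold. With the 6 control wells as normalizer, as drawn, the points of miR-192-5p stay within -0.11 and 0.46, whereas those of miR-34a-3p spread from -1.65 to 1.78. With the global mean the AGO2 cDNA value of miR-192-5p is 0.95.

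Members from neighbouring hairpins were set side by side over the arrays, as a description without a test, since all points share the normalizer wells of their array. The Pearson correlation of normalized Ct over 12 arrays was 0.74 between miR-34b-3p and miR-34c-3p, whose genes are 417 bases apart, and 0.76 over 10 arrays without AGO2-sh72. It was 0.82 between miR-192-5p and miR-194-5p over 12 arrays, with a Spearman rho of 0.41. The Pearson value fell to 0.18 and the rho to -0.02 without the 2 AGO2-sh72 arrays, so the larger values came from those 2 arrays. With the global mean as normalizer the Pearson value over 12 arrays was 0.58, against 0.73 for miR-34b-3p and miR-34c-3p. miR-194-5p and miR-215-5p, whose genes MIR194-1 and MIR215 are neighbours, had 0.63 over 12 arrays and -0.003 without AGO2-sh72. miR-192-5p and miR-215-5p, which share their seed, had 0.64 over 12 arrays and -0.08 without AGO2-sh72. Between arms of a single hairpin the value was 0.16 for miR-34a-5p and miR-34a-3p (0.24 without AGO2-sh72). For miR-192-5p and miR-192-3p it was 0.21 with a Spearman rho of 0.49, and 0.46 with a rho of 0.58 without AGO2-sh72.

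**Figure D4:**
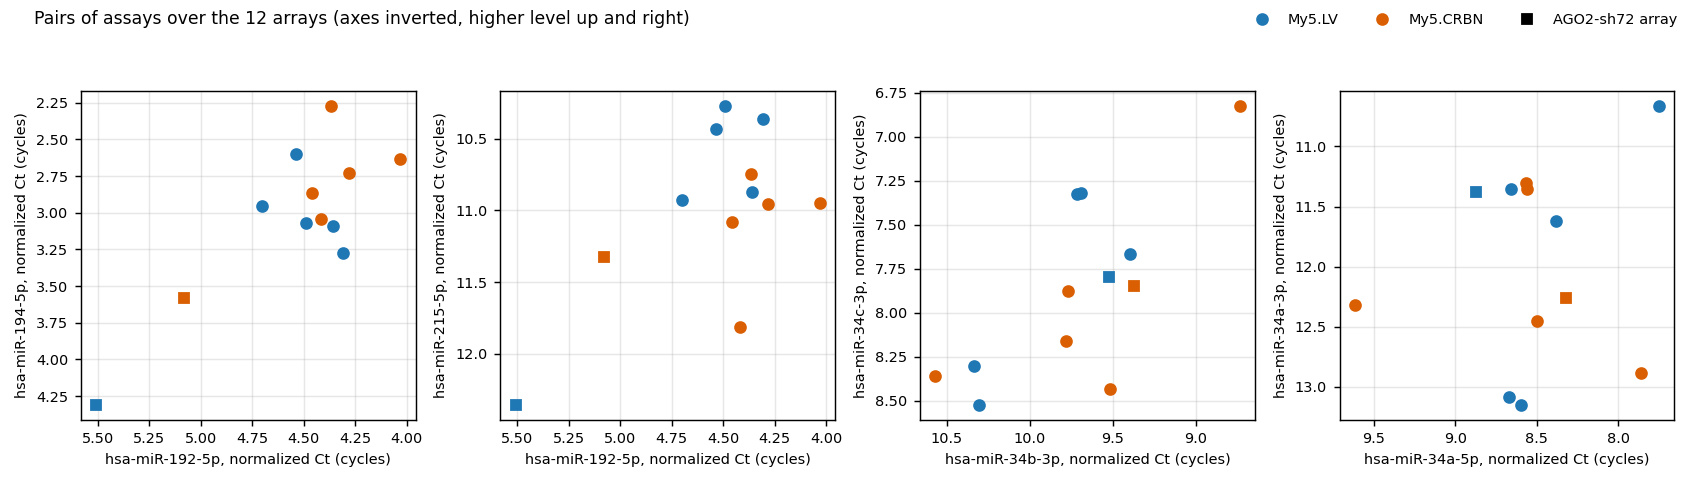
Normalized Ct in cycles of 4 pairs of assays against each other (both axes inverted, so that higher levels lie up and to the right), with 1 point per array, 12 in all, and squares for the AGO2-sh72 arrays. The AGO2-sh72 squares lie at the low end of both axes for miR-192-5p and miR-194-5p, while miR-34b-3p and miR-34c-3p spread along a line without them.

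The miRNAs of other families with the most similar pattern over the 12 arrays were sought among those under the cap on every array, again as a description. miR-192-5p was most like miR-744-5p (r = 0.93) and miR-194-5p most like miR-330-3p (0.92). miR-34a-5p was most like miR-20b-3p (0.91), miR-34b-3p most like miR-127-5p (0.93) and miR-34c-3p most like miR-200a-5p (0.91). The best match was looser for miR-215-5p (miR-193b-3p, 0.78), miR-34a-3p (miR-549a, 0.78) and miR-192-3p (miR-106b-3p, 0.72). With the global mean as normalizer the value of miR-192-5p and miR-744-5p became 0.71, and that of miR-34a-5p and miR-20b-3p was 0.93.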

How the data were processed

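Total RNA of 12 cultures was isolated with the miRNeasy Mini kit, reverse transcribed with the miScript II RT kit and run on miScript miRNA PCR Arrays with an instrument of Applied Biosystems. As deposited by the authors, the values are the Ct of each well, not normalized, a cycle number on a log2-like scale; threshold and baseline settings are not given in the sources used here. A further deposited table holds the authors' fold changes to the un-treated My5.LV array and was not used. Groups came from the sample labels.

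Undetermined wells (33, none of a member) and Ct values above 35 were set to 35, and each array was normalized by subtracting its mean over 6 small-RNA control wells. This assumes 2 fold per cycle. Differences of at least 3 fold, the study's threshold, were counted over all 372 miRNA assays, with no test and no p-value at 1 array per condition. Each value rests on 1 well. The 18 comparisons were recomputed under 5 alternatives: 3 other normalizers, a Ct cap of 32, and a filter of Ct under 30 on at least 1 array. The comparison of AGO2 cDNA with AGO2-sh72 under these alternatives, and correlations without AGO2-sh72 arrays or with the global mean, were chosen after seeing the data. The members were chosen with earlier results of these data known. The named miRNAs were all members and the miRNAs with the highest Pearson correlation to a member; a pair of further miRNA lists is not reported here. Sequences and gene positions came from RefSeq tables (GRCh38.p14). Calls were tested on simulated data, which planted no change in miRNAs read late, so that test does not cover calls from late wells. The work used Python 3.11.15 with pandas 2.3.3, SciPy 1.17.1, NumPy 2.4.6 and, for plots, Matplotlib 3.10.9.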

Additional observations from a re-analysis of the deposited data

Results flagged for a closer look

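For 8 values the cell lines moved in opposite directions under the same treatment, each by more than the SD of its 6 control wells. Each is a difference between single arrays, and none of these differences was tested. The same rule was not applied to all 372 miRNAs, so no background share stands beside the 8. The difference is the log2 fold change in My5.CRBN minus that in My5.LV cells.

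miR-34a-3p differed under 3 treatments, by -2.66 with AGO2-sh72 (1.71 for My5.LV, -0.95 for My5.CRBN), by -3.43 with AGO2 cDNA (2.42 and -1.01) and by -2.87 with AGO2 cDNA and lenalidomide (1.73 and -1.14). These 3 share both un-treated arrays, on which miR-34a-3p had a normalized Ct of 13.08 (My5.LV) and 11.31 (My5.CRBN). miR-34a-5p differed by -1.97 with AGO2 cDNA (0.92 and -1.05).

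miR-215-5p differed by 2.48 with AGO2-sh72 (-1.99 and 0.49) and by 1.63 after 72 hours of lenalidomide (-0.56 and 1.07). These 2 also share both un-treated arrays, on which miR-215-5p had a normalized Ct of 10.36 (My5.LV) and 11.81 (My5.CRBN). On the treated arrays it was 12.35 and 11.32 with AGO2-sh72, and 10.93 and 10.74 after 72 hours of lenalidomide. miR-34c-3p differed by 1.68 after 72 hours of lenalidomide (-0.34 and 1.33), and miR-34b-3p by 0.86 after 120 hours (-0.59 and 0.27). Some of the flagged values fell within 1 control-well SD under another normalizer. With RNU6 alone, miR-215-5p had 0.04 with AGO2-sh72 in My5.CRBN cells (SD 0.30). With RNU6 alone, miR-34a-3p had 0.57 with AGO2 cDNA and lenalidomide in My5.LV cells (SD 0.67). With the global mean, miR-34b-3p had -0.37 after 120 hours in My5.LV cells (SD 0.41). For miR-34a-5p with AGO2 cDNA in My5.LV cells, RNU6 alone gave 0.29 (SD 0.41).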

How the results depend on the processing

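The counts of the 10 miRNAs past 3 fold rested on wells read late. The share of all miRNAs past 3 fold was not counted under the alternatives below. miR-215-5p, miR-34a-3p, miR-34b-5p and miR-34c-5p had median Ct values of 31.3 to 35.6. A cap of 32 thus leaves these assays little room to reach 3 fold. With a Ct cap of 32, the count fell from 5 to 1 for My5.CRBN against My5.LV cells, and from 3 to 0 for AGO2-sh72, 2 to 0 for AGO2 cDNA, 2 to 0 for AGO2 cDNA with lenalidomide and 1 to 0 for AGO2 cDNA against AGO2-sh72. For 120 hours of lenalidomide it stayed at 1, but with 1 lower in place of 1 higher (miR-34a-3p in My5.CRBN cells at -1.67, with the un-treated array at the cap, in place of miR-34c-5p). A Ct under 30 on at least 1 array gave the same counts (1, 0, 0, 0 and 0), and 0 in place of 1 for 120 hours of lenalidomide. For AGO2 cDNA the count was 1 under each of the other 3 normalizers. It became 2 with the reverse transcription wells for 120 hours of lenalidomide, 4 (all lower) with RNU6 alone for AGO2 cDNA with lenalidomide, and 2 (both lower) with the global mean for AGO2 cDNA against AGO2-sh72. For AGO2-sh72 the split of 2 higher and 1 lower became 4 and 0 with the global mean and 0 and 3 with RNU6 alone. At a cap of 32 miR-34a-3p in My5.CRBN against My5.LV cells with AGO2 cDNA gave 0.53 in place of -1.65, because My5.CRBN was then at the cap and the value is only an upper bound. The count for 72 hours of lenalidomide was 0 under all 5 alternatives. No paired analysis was possible because each condition has 1 array, so no replicate numbers pair arrays; the lines were set side by side over the 6 matched conditions, with no test.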
